A study of Homo sapiens with 8 samples.

Results

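The mitochondrial ribosomal protein genes were taken as every row of the normalized count table whose symbol is MRPL or MRPS followed by a number, without pseudogenes or antisense genes. They are 76 of the 23368 gene symbols, 47 MRPL genes of the large subunit series and 29 MRPS genes of the small subunit series. The rows MRPL23-AS1, MRPL42P5 and MRPL45P2 were left out. The study measured ribosome-bound messenger RNA in H2030-BrM, a brain-metastatic derivative of a human lung adenocarcinoma cell line, by translating ribosome affinity purification (TRAP), in which antibodies against EGFP pull down ribosomes that carry EGFP-tagged Rpl10a. All 8 libraries come from cells that carry the transgene pLVX-EGFP-Rpl10a-IRES-hygro.

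The 4 groups hold 2 libraries each, labelled as biological replicates. In shL1CAM_slice the cells carried an shRNA against L1CAM, a cell adhesion molecule, and were cultured for 48 h on a slice of mouse brain. In shL1CAM_dish the same cells came from regular culture in a petri dish, at 0 h. In shControl_slice the cells carried an shRNA against luciferase and spent 48 h on the slice, and in shControl_dish they came from the dish at 0 h. Dish cells grew in RPMI and slice cultures in a DMEM-based medium with less serum, per the labels, so that the slice, the medium and the time in culture cannot be told apart. All cells derive from 1 cell line, and the labels do not say whether replicates were separate cultures. The p-values therefore measure the spread between these libraries, which may be technical.

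Mitochondria have ribosomes of their own, which translate the few messenger RNAs encoded by mitochondrial DNA into core subunits of the respiratory chain. All proteins of these ribosomes are encoded in the nucleus, made on cytosolic ribosomes and imported. Some descend from the ribosome of the bacterial ancestor, and others exist only in mitochondria. TRAP as used here reads the messenger RNA for these proteins on cytosolic ribosomes, and not the mitochondrial ribosomes themselves. Ribosome-bound RNA of a gene rises or falls with its messenger RNA and with the share of it that is bound, and these cannot be told apart here; in the bulk libraries, fewer cells of a type and less RNA per cell cannot be told apart either.

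The table held 13486212 to 16734651 reads per library, recovered as described in the methods. L1CAM was at 74.7 and 65.4 normalized counts in shL1CAM_slice, 126 and 88.3 in shL1CAM_dish, 451 and 438 in shControl_slice, and 482 and 440 in shControl_dish, in the direction of the labels. The epithelial keratins KRT8 and KRT18 ranged from 3460 to 6002 normalized counts and EPCAM from 78.3 to 169, while KRT19 stood at 0 to 1.00. Replicate 2 of shL1CAM_slice stood apart. In that library the genes with the shortest 10% of transcripts had a median of 0.50 above their own mean over the 8 libraries on the log2 scale and those with the longest 10% a median of -0.69, while in the other 7 libraries these medians lay between -0.16 and -0.02 and between 0.06 and 0.18. For the mitochondrial ribosomal protein genes, the counts, the medians and the named values that turn on it are given with and without it. For the other gene lists the counts rest on all 8 libraries unless stated.

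The members were well measured with 1 exception. Of the 76 genes, 75 had a mean of at least 10 normalized counts over the 8 libraries and were tested, and their means ran from 417 for MRPS14 to 4260 for MRPL12. The median of these means was 1190, against 479 for all 13010 tested genes. MRPS24, a small-subunit protein with a bacterial counterpart, was the 1 member not tested. It had 1.84 and 9.52 normalized counts in shL1CAM_slice, 4.58 and 3.01 in shL1CAM_dish, 3.82 and 2.14 in shControl_slice, and 1.96 and 0.943 in shControl_dish. Most of these values lie near the 2.75 to 3.57 normalized counts that 3 reads were worth, so no fold change is given. In GENCODE v29, 23.2% of the exonic bases of MRPS24 are shared with the readthrough gene URGCP-MRPS24, whose own row is at 0 in all 8 libraries; the part of that overlap in the low values was not tested.

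Levels were compared between genes per kilobase of transcript. The 47 MRPL genes had a median of 1163 normalized counts per kb and the 28 tested MRPS genes 818, against 165 for all tested genes with a transcript length. MRPL33, a large-subunit protein that bacteria share, was highest with a mean of 5392 per kb (4271 to 7593 over the 8 libraries). MRPL12 followed with 4144 per kb (3582 to 6949). It belongs to the stalk that recruits translation factors and also binds mitochondrial RNA polymerase. MRPL12 shares 68.2% of its exonic bases with the overlapping gene AC139530.2 in GENCODE v29, and the kit did not mark strand, so its value is uncertain. The next were MRPL52 at 3549 per kb, MRPS15 at 2662 per kb and MRPL20 at 2499 per kb. At the low end of the tested members stood MRPS23 at 163 per kb (123 to 218), MRPS25 at 188 per kb (160 to 294), MRPS14 at 197 per kb (151 to 273), MRPL42 at 210 per kb (188 to 227) and MRPL50 at 272 per kb (229 to 322). The ranges of MRPL33 and MRPL12 overlapped, as did those of MRPS23, MRPS25, MRPS14 and MRPL42. The range of MRPL52 (2833 to 5362) overlapped those of MRPL33, MRPL12, MRPS15 and MRPL20. The range of MRPL50 overlapped those of MRPS25 and MRPS14. The ranges pool all groups, so their overlap does not tell whether such neighbours differed within each library, which was not tested. Levels per kb rest on 1 annotated length per gene, and the long annotated transcripts of MRPL42 and MRPS23 lower theirs.

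**Figure D1:**
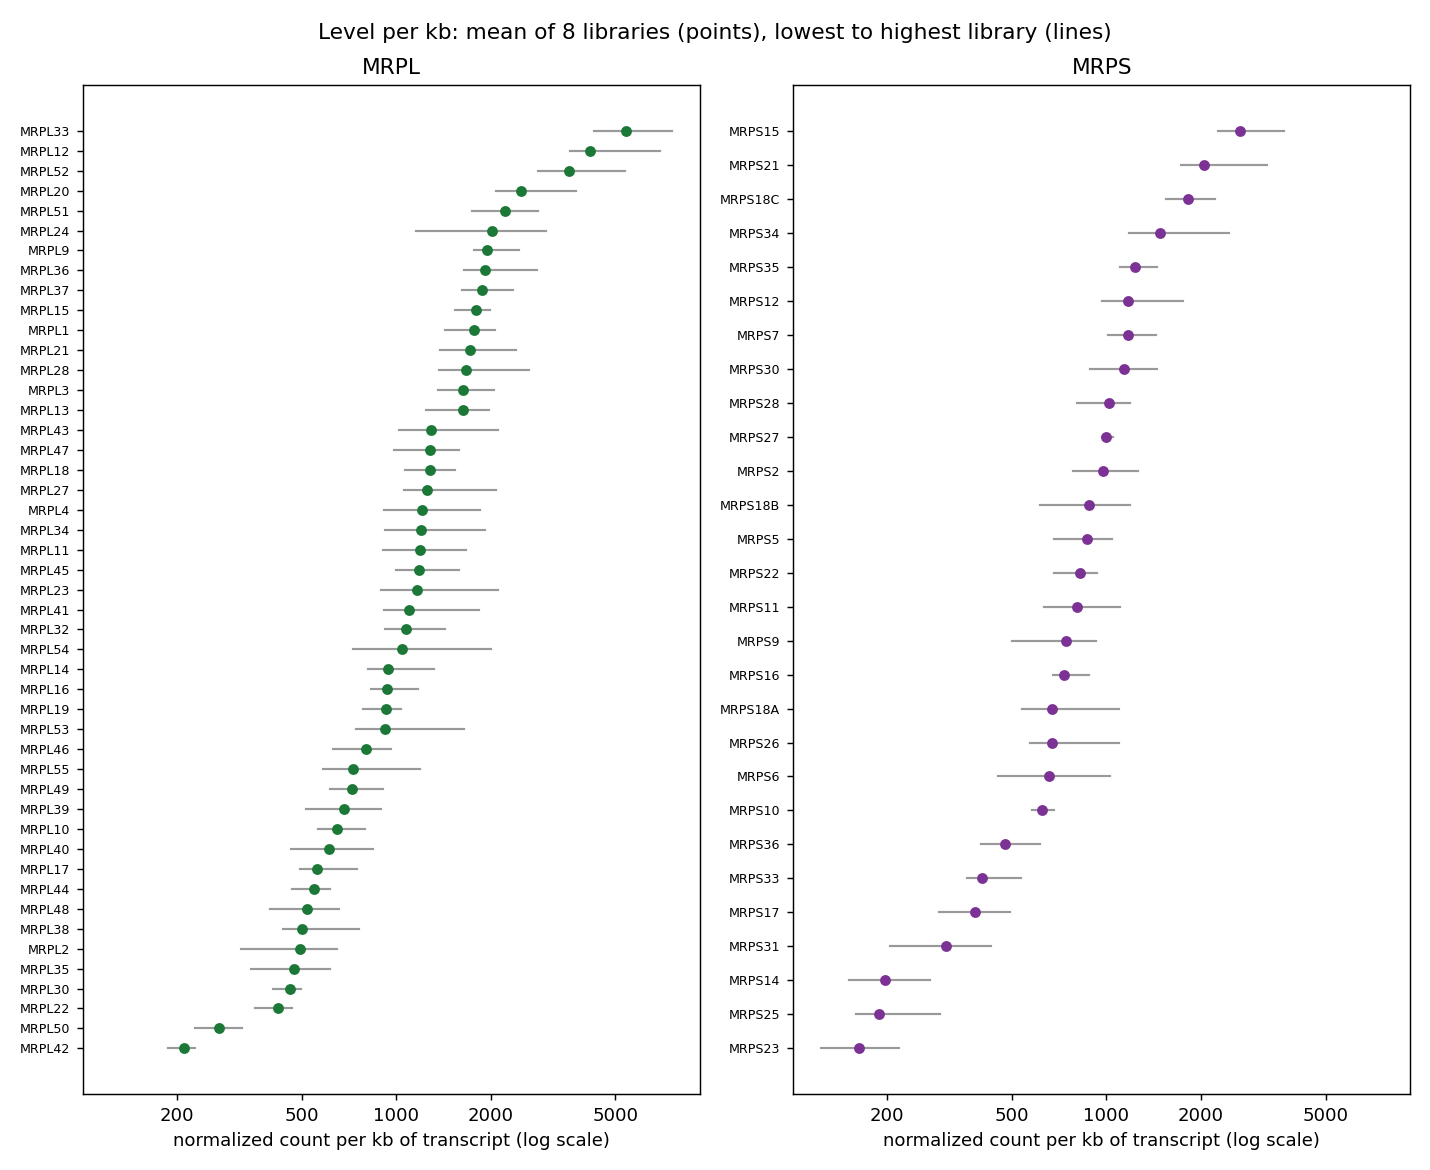
Normalized count per kb of transcript (log scale) of the 75 tested members, MRPL genes on the left and MRPS genes on the right, ordered by level. Points are means of 8 libraries and lines run from the lowest to the highest library; MRPL33 is highest at 5392 per kb and MRPS23 lowest at 163 per kb.

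In cells with control shRNA, 5 members fell on the slice and 0 rose. The 5 were MRPL24 and MRPL39 of the large subunit and MRPS31, MRPS23 and MRPS18B of the small subunit, and they were 1.51-fold to 1.89-fold lower than in the dish. These are 6.67% of the 75 members tested, against 8.03% of all tested genes called lower and 6.80% called higher, so the number of calls is no larger than the background. No member was called higher by edgeR (0) or DESeq2 (0) either, against 6.58% and 8.54% of all tested genes. In either direction, 17 of the 75 members had an unadjusted p under 0.05. Of the 13010 tested genes 4113 did, a larger share.

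MRPL24, a bacterial-type protein at the mouth of the tunnel through which the new peptide leaves the large subunit, had 1021 and 1047 normalized counts in shControl_slice, against 1838 and 2070 in shControl_dish. Both slice libraries lay below both dish libraries, with means of 1034 ± 18.8 and 1954 ± 164 (SD, n = 2 each). The change was -0.91 ± 0.22 on the log2 scale (SE, limma adjusted p = 0.0283), a 1.89-fold lower value.

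MRPS31, a small-subunit protein found only in mitochondrial ribosomes, had 309 and 308 normalized counts in shControl_slice, against 552 and 588 in shControl_dish. The slice replicates were nearly equal and the groups did not overlap. Its log2 change was -0.88 ± 0.18 (limma adjusted p = 0.0168).

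MRPS23, also specific to mitochondria, had 691 and 723 normalized counts in shControl_slice, against 1225 and 1169 in shControl_dish. The groups were apart, with means of 707 ± 22.5 and 1197 ± 39.0 (SD, n = 2 each). The log2 change was -0.76 ± 0.16 (limma adjusted p = 0.0182).

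MRPL39, a large-subunit protein without a bacterial counterpart, had 611 and 610 normalized counts in shControl_slice, against 936 and 1031 in shControl_dish. Its lowest dish library lay well above both slice libraries. The log2 change was -0.69 ± 0.15 (limma adjusted p = 0.0212).

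MRPS18B is 1 of 3 human proteins related to bacterial S18. It had 978 and 944 normalized counts in shControl_slice, against 1470 and 1434 in shControl_dish, and the groups did not overlap. The log2 change was -0.60 ± 0.14 (limma adjusted p = 0.0237).

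**Figure D2:**
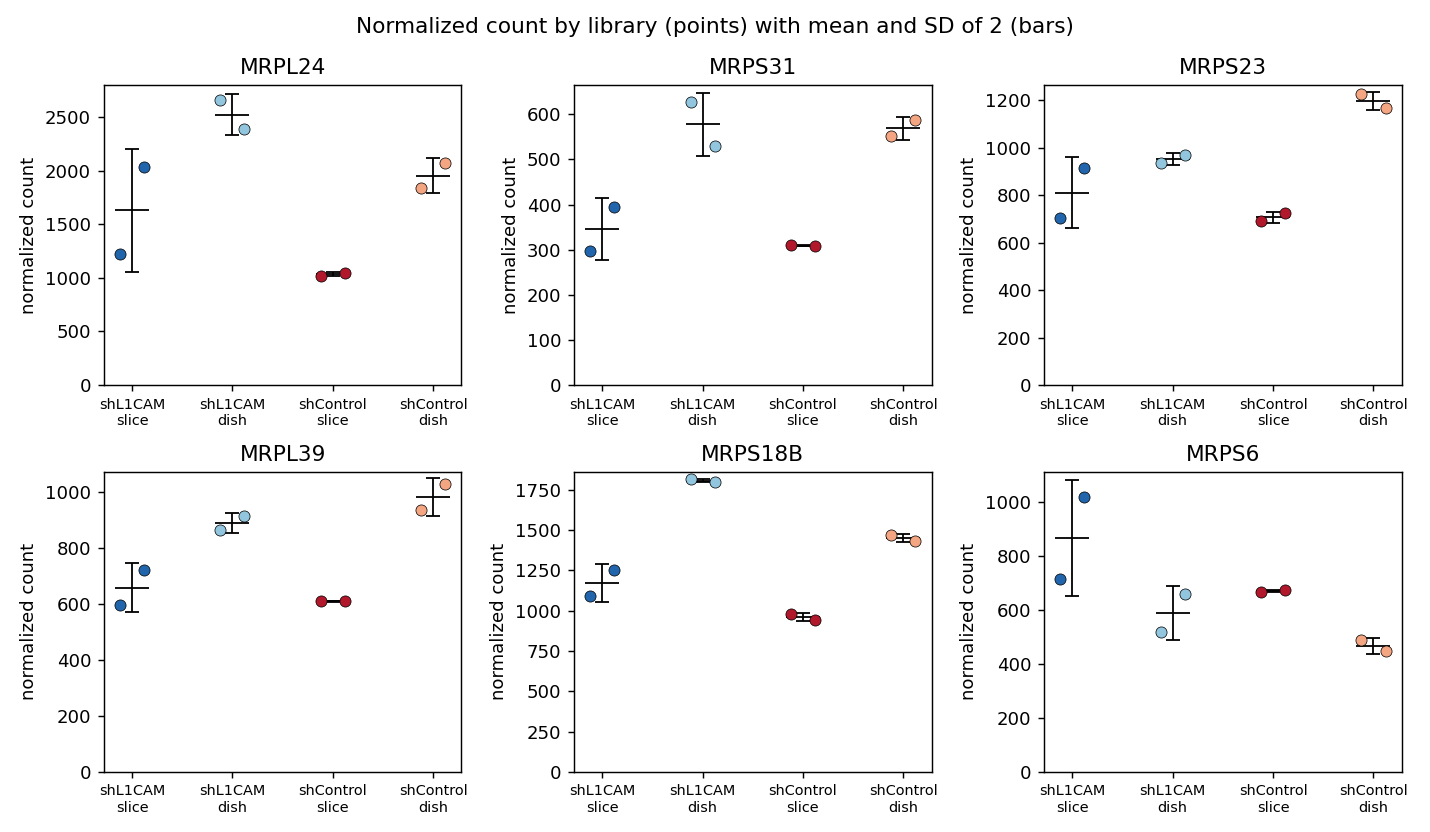
Normalized counts of the 5 members called lower with control shRNA and of MRPS6, in each of the 8 libraries (points), with the mean and SD of each group of 2 (bars). For the 5, both libraries of each slice group lie below both libraries of the dish group with the same shRNA, as for MRPL24 with 1021 and 1047 in shControl_slice and 1838 and 2070 in shControl_dish; MRPS6 lies the other way.

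Each call depended on the spread estimated from few libraries. Without any 1 of the 4 control-shRNA libraries, 0 members passed the threshold, against 0.0307% to 0.530% of all tested genes called lower, although the log2 changes of all 5 stayed at -0.57 or further below 0. Without either library of shL1CAM_dish, 3 of the 5 passed (4.78% and 4.81% of all tested genes), namely MRPS31, MRPS23 and MRPL39. Without replicate 2 of shL1CAM_slice, whose deviation enters the shared spread and not these fold changes, 28 members were called lower and 5 higher, which is 37.3% and 6.67% of the 75, against 23.0% and 23.9% of all tested genes. Without replicate 1 of that group the counts of members were again 28 and 5, against 23.0% and 23.8%. With replicate 2 left out, the 5 called higher were MRPS6, MRPL34, MRPL54, MRPL33 and MRPL45, and the largest falls beside the 5 were those of MRPL2 (-0.71), MRPS9 (-0.59), MRPL47 (-0.56) and MRPL13 (-0.48).

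The promoters of the 5 called members are shown because these genes were lower together on the slice, and because promoter letters were not used to choose them. They are the 200 bases before the annotated start, on the gene's strand, from RefSeq on GRCh38.p14: MRPL24 at chr1:156741089-156741288 (minus strand), MRPS31 at chr13:40771191-40771390 (minus), MRPS23 at chr17:57850045-57850244 (minus), MRPL39 at chr21:25607482-25607681 (minus) and MRPS18B at chr6:30617640-30617839 (plus). Capitals mark matches on either strand to the motifs described in the next paragraph.
MRPL24: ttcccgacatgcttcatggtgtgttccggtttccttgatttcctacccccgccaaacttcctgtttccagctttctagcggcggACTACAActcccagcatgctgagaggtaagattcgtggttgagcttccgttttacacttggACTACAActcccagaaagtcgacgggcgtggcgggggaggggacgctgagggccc
MRPS31: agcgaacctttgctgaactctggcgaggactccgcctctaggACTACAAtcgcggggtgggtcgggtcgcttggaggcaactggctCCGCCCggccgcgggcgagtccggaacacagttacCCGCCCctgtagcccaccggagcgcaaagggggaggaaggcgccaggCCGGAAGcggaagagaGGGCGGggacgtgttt
MRPS23: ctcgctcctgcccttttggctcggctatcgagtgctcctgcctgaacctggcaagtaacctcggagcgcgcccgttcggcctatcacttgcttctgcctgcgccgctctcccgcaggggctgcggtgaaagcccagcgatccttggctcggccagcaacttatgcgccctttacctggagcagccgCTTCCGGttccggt
MRPL39: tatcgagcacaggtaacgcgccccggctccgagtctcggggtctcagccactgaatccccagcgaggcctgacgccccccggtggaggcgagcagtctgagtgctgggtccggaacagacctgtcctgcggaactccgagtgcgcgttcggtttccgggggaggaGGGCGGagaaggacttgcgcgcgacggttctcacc
MRPS18B: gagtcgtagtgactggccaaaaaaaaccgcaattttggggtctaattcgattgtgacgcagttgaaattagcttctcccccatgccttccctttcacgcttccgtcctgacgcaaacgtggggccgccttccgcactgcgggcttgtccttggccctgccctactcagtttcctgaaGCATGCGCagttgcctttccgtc

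The motifs searched on both strands, from 250 bases before to 50 bases after the start, were CCGGAAG for ETS factors such as GABPA, AAGATGGC for YY1, GCATGCGC for NRF1, CACGTG for E-box factors and GGGCGG for Sp1. ACTACAA, the core of a ZNF143-type motif, was added after the sequences had been read. CCGGAAG and AAGATGGC can share the letters AAG, and did so in 0 of the 8 members that hold both. A promoter was at hand for 67 of the 76 members and for 10161 of the tested genes. CCGGAAG was in 28 of the 67 members (41.8%), against 19.3% of the tested genes and 10.7% of all 27305 promoters. AAGATGGC was in 20 members (29.9%), against 5.54% and 3.03%. GCATGCGC was in 6 members (8.96%), against 5.74% and 3.27%, and CACGTG in 6 (8.96%), against 10.3% and 7.43%. GGGCGG was in 41 members (61.2%), against 71.4% and 44.6%.

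Among the called members, MRPS31 has CCGGAAG starting at -32 and MRPS23 has it on the reverse strand at -14. MRPS18B has GCATGCGC at -23 and AAGATGGC at 24, after the start and outside the printed bases. GGGCGG stands at -16 in MRPS31 and on the reverse strand at -114 and -79, in MRPL39 at -35 and on the reverse strand at -245, and in MRPL24 on the reverse strand at 44. MRPL24 has ACTACAA at -116 and again at -55, and MRPS31 has it at -158. ACTACAA was in 6 members in all (8.96%), against 3.96% of the tested genes. The 28 tested members with CCGGAAG had a median slice change of -0.11 on the log2 scale with control shRNA and the 38 without it a median of -0.19, and 2 and 3 of them were among the called. For AAGATGGC these medians were -0.16 in 19 tested members with it and -0.11 in 47 without it. These are descriptions of letters in a window, and nothing follows from them about the factors.

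The members that were higher on the slice with control shRNA did not pass the test. MRPS6, a bacterial-type small-subunit protein, had 668 and 674 normalized counts in shControl_slice, against 487 and 446 in shControl_dish, a log2 change of 0.52 ± 0.20 (limma adjusted p = 0.114). Its locus is shared with SLC5A3, an inositol transporter, which was at 1133 and 1185 normalized counts in shControl_slice, against 687 and 622 in shControl_dish. SLC5A3 was at 954 and 277 in shL1CAM_slice, against 672 and 602 in shL1CAM_dish, and so lowest in replicate 2 of shL1CAM_slice, where MRPS6 was highest with 1017. The kit did not mark strand and 9.61% of the exonic bases of MRPS6 are shared with SLC5A3 or AP000317.2, and the part of these reads in the value of MRPS6 was not tested. MRPL34 had a log2 change of 0.38 ± 0.21 (limma adjusted p = 0.258), with 1205 and 1187 in shControl_slice, against 890 and 948 in shControl_dish. MRPL33 had 0.31 ± 0.18 (limma adjusted p = 0.277), with 2607 and 2623 in shControl_slice, against 1969 and 2247 in shControl_dish.

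Across all 75 tested members the slice change with control shRNA had a median of -0.18 on the log2 scale, against 0.01 for all tested genes. 52 members had a negative change and 23 a positive one. For 46 members (61.3%) both slice libraries lay below both dish libraries, against 37.3% of all tested genes, and for 14 (18.7%) both lay above, against 39.8%. The medians of the MRPL genes and the MRPS genes were both -0.18. Summed over the 76 members, the share of all normalized counts was 0.655 ± 0.003% in shControl_slice and 0.710 ± 0.003% in shControl_dish (SD, n = 2 each).

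**Figure D3:**
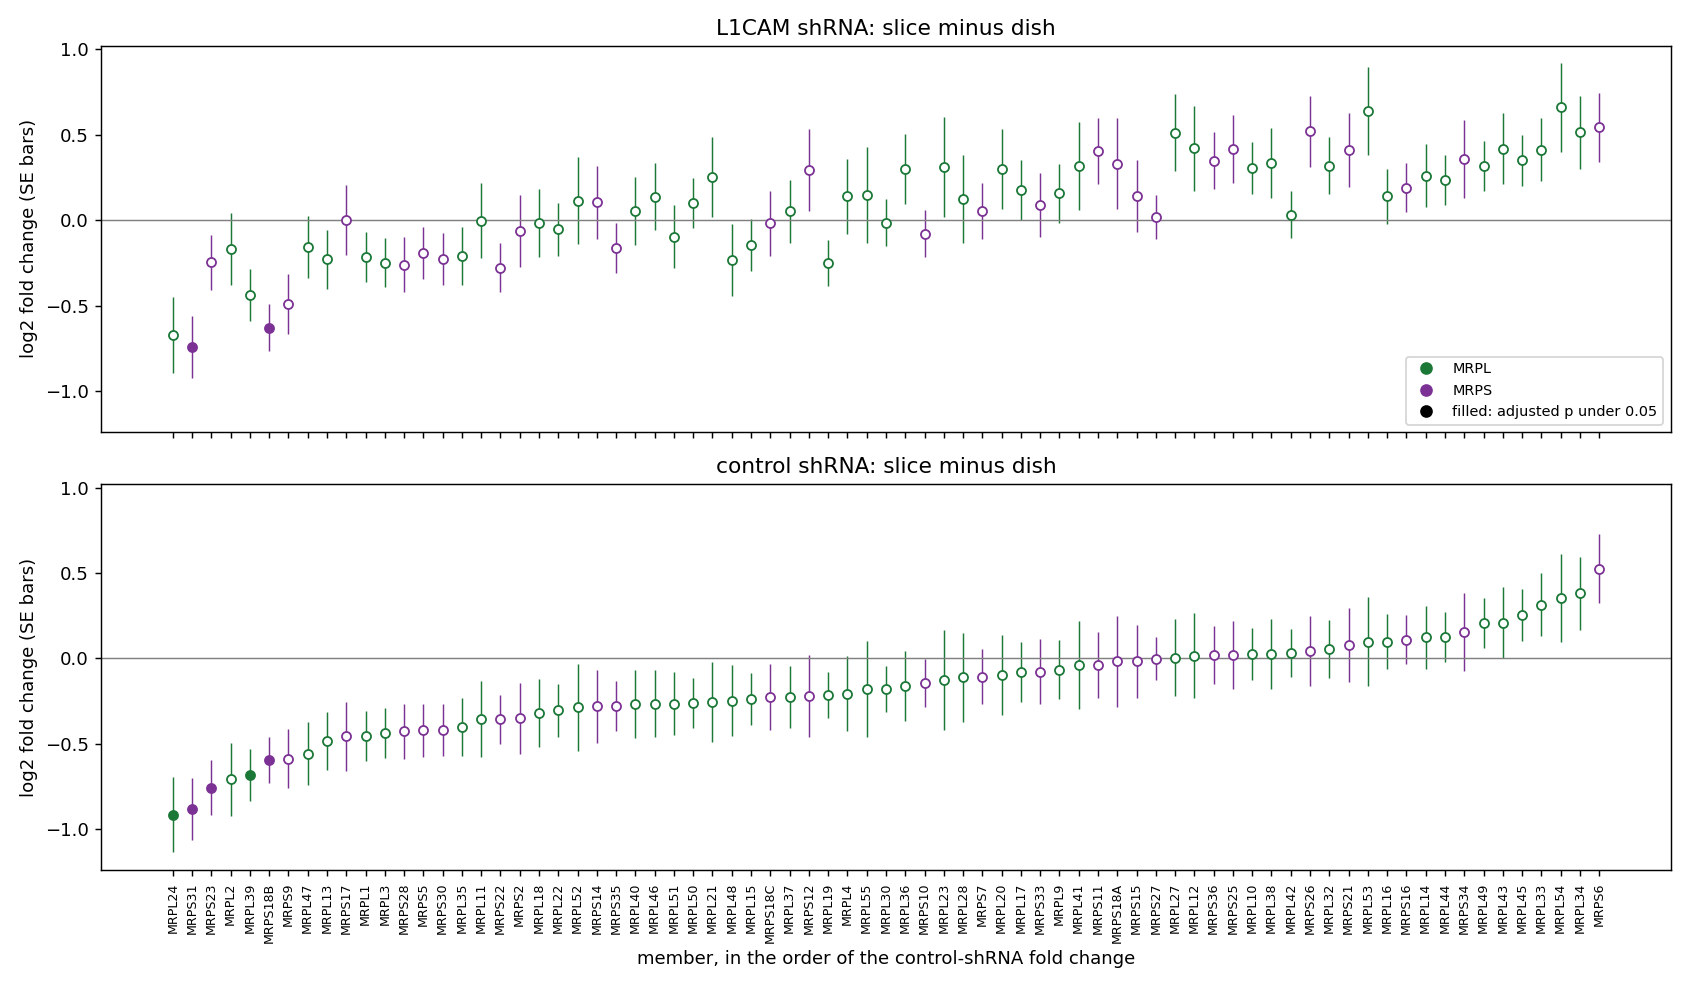
Slice minus dish log2 fold change of each tested member, with its SE, for L1CAM shRNA (top) and control shRNA (bottom), ordered by the control-shRNA value; filled points have an adjusted p under 0.05. The median is 0.11 with L1CAM shRNA and -0.18 with control shRNA, and MRPS31 and MRPS18B are filled in both panels.

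In cells with L1CAM shRNA, 2 members fell on the slice and 0 rose. These are 2.67% of the 75 members, against 11.2% of all tested genes called lower and 10.1% called higher. edgeR called 0 members higher and DESeq2 2, and 11 members had an unadjusted p under 0.05 in either direction. MRPS31 had 298 and 395 normalized counts in shL1CAM_slice, against 627 and 529 in shL1CAM_dish. The groups did not overlap, and the log2 change was -0.75 ± 0.18 (limma adjusted p = 0.0220). MRPS18B had 1088 and 1253 in shL1CAM_slice, against 1816 and 1799 in shL1CAM_dish. Its log2 change was -0.63 ± 0.14 (limma adjusted p = 0.0155). MRPS31 did not pass without any 1 of the 4 control-shRNA libraries or of the 2 shL1CAM_dish libraries (limma adjusted p = 0.0511 to 0.154), and MRPS18B did not pass without either library of shControl_slice or of shL1CAM_dish (limma adjusted p = 0.0509 to 0.0991). Neither passed with library weights (limma adjusted p = 0.114 for MRPS31 and 0.0993 for MRPS18B) or with the 4 libraries compared alone (limma adjusted p = 0.136 and 0.150). Without replicate 2 of shL1CAM_slice the changes were -0.95 for MRPS31 (limma adjusted p = 0.000219) and -0.73 for MRPS18B (limma adjusted p = 0.000183).

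MRPL24 had 1224 and 2035 normalized counts in shL1CAM_slice, against 2658 and 2385 in shL1CAM_dish. The groups did not overlap, but the 2 slice libraries were far apart, and the change of -0.67 ± 0.22 did not pass (limma adjusted p = 0.0600). Without replicate 2 of shL1CAM_slice it was -1.04 (limma adjusted p = 3.08e-05), and without replicate 1 it was -0.31 (limma adjusted p = 0.0362). MRPL39 had 597 and 722 in shL1CAM_slice, against 865 and 917 in shL1CAM_dish, and a change of -0.44 ± 0.15 (limma adjusted p = 0.0699), or -0.58 without replicate 2 (limma adjusted p = 0.00207). MRPS23 had 705 and 916 in shL1CAM_slice, against 934 and 971 in shL1CAM_dish, and a change of -0.25 ± 0.16 (limma adjusted p = 0.295), or -0.43 without replicate 2 (limma adjusted p = 0.00834). All 5 members called with control shRNA thus had both slice libraries below both dish libraries here as well.

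The 3 members with the smallest p among those higher on the slice with L1CAM shRNA were MRPS6 (0.54 ± 0.20, limma adjusted p = 0.0858), MRPL54 (0.66 ± 0.26, limma adjusted p = 0.0981) and MRPS26 (0.52 ± 0.21, limma adjusted p = 0.101), and none passed. MRPS6 had 713 and 1017 normalized counts in shL1CAM_slice, against 518 and 659 in shL1CAM_dish. MRPL54 and MRPS26 are both specific to mitochondrial ribosomes. MRPL54 had 691 and 1259 in shL1CAM_slice, against 535 and 650 in shL1CAM_dish. MRPS26 had 785 and 1239 in shL1CAM_slice, against 684 and 690 in shL1CAM_dish. In each of the 3 the higher slice value is that of replicate 2. Without that library the changes were 0.29 for MRPS6, 0.23 for MRPL54 and 0.19 for MRPS26 (limma adjusted p = 0.142 to 0.226). Without replicate 1 they were 0.80, 1.09 and 0.85 (limma adjusted p at most 0.000433).

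With either shRNA, both slice libraries lay below both dish libraries for 12 of the 75 tested members (16.0%), against 24.3% of all tested genes. They were MRPL1, MRPL3, MRPL19, MRPL24, MRPL39, MRPS5, MRPS9, MRPS18B, MRPS22, MRPS23, MRPS28 and MRPS31. Both slice libraries lay above both dish libraries for 9 of the 75, against 23.9% of all tested genes. They were MRPL33, MRPL34, MRPL43, MRPL44, MRPL45, MRPL49, MRPL53, MRPL54 and MRPS6. In both directions the share of the members was smaller than that of all tested genes. These counts include replicate 2 of shL1CAM_slice, which was higher than replicate 1 for 73 of the 75 members. They were not made without that library, so the comparison of shares may rest on it.

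The median slice change of the members with L1CAM shRNA was 0.11 on the log2 scale (0.00 for all tested genes), with 47 positive and 28 negative. Both slice libraries lay above both dish libraries for 16 members (21.3%, against 28.0% of all tested genes) and below them for 12 (16.0%, against 28.7%). The median rested on which slice replicate was used. Without replicate 2 of shL1CAM_slice the median was -0.17, with 23 members called lower (30.7%) and 0 higher, against 19.2% and 19.5% of all tested genes. Without replicate 1 it was 0.36, with 44 members called higher and 5 lower, against 27.6% and 30.1% of all tested genes. Of the 28 members called lower with control shRNA and the 23 called lower with L1CAM shRNA when replicate 2 was left out, 20 were shared, which is 71.4% of the 28 and 87.0% of the 23. Over all tested genes 2154 were shared in the same way, which is 71.9% and 86.2% of the genes called lower, so the sharing among the members is near the background.

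The deviation of that library touched nearly every member. Between the replicates of shL1CAM_slice, replicate 2 was higher for 73 of 75 members, with a median difference of 0.52 on the log2 scale and a range from -0.17 to 1.09. The corresponding medians were 0.15 in shL1CAM_dish, 0.00 in shControl_slice and -0.01 in shControl_dish. 52 of the 75 members were highest of all 8 libraries there. The members made up 0.865% of the normalized counts of that library and 0.653% to 0.759% of those of the other 7.

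Members are short genes, with a median transcript of 1264 bases, against 2816 bases for the tested genes with a length. The difference between the replicates of shL1CAM_slice was 0.66 in the 38 shorter members and 0.35 in the 37 longer ones. In shControl_slice it was 0.02 and -0.01. With a length trend removed from each library, the members had a median slice change of -0.02 with L1CAM shRNA and -0.22 with control shRNA.

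**Figure D4:**
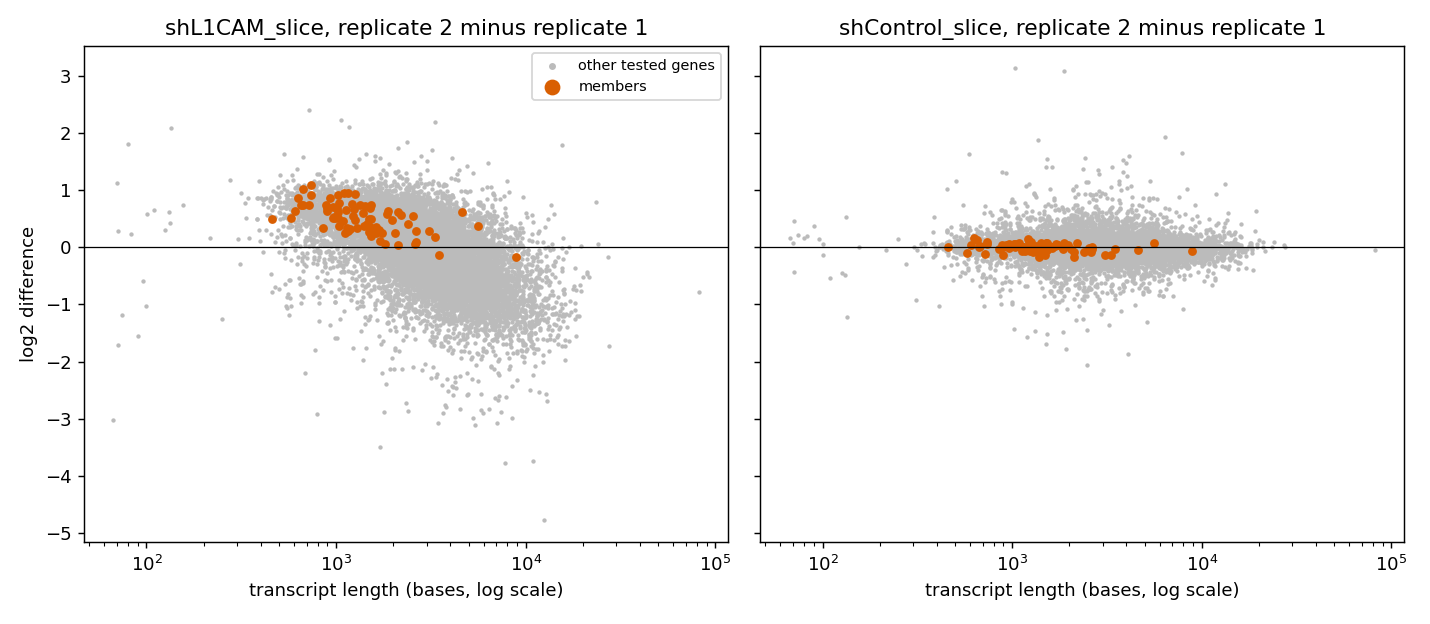
Replicate 2 minus replicate 1 (log2 difference) against transcript length (bases, log scale) in shL1CAM_slice (left) and shControl_slice (right), for the tested members (orange) and the other tested genes with a length (grey). In shL1CAM_slice the difference declines with length and the members have a median of 0.52, while in shControl_slice they lie between -0.17 and 0.17.

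Between L1CAM shRNA and control shRNA no member was called. On the slice, 0 members were higher and 0 lower by limma, edgeR or DESeq2, against 0.154% and 0.492% of all tested genes by limma. By edgeR these shares were 0.184% and 0.477%, and by DESeq2 0.930% and 1.68%. An unadjusted p under 0.05 was found for 9 of the 75 members and for 2384 of the 13010 tested genes, a larger share. The members had a median of 0.27 on the log2 scale (0.00 for all tested genes), and 65 of 75 were positive. For 34 members both shL1CAM_slice libraries lay above both shControl_slice libraries (45.3%, against 26.0% of all tested genes), and for 2 both lay below (24.1% of all tested genes). Without replicate 2 of shL1CAM_slice the median was 0.02, with 0 members called higher or lower, against 1.51% and 3.16% of all tested genes. Without replicate 1 it was 0.48, with 56 members called higher and 0 lower, against 25.2% and 27.8%.

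The members with the smallest p in that comparison were MRPL2, MRPL4 and MRPL24. MRPL2, which lies near the site of peptide bond formation, had 505 and 804 normalized counts in shL1CAM_slice, against 418 and 398 in shControl_slice, a log2 difference of 0.64 ± 0.21 (limma adjusted p = 0.204). MRPL4, in the wall of the exit tunnel, had 1608 and 2640 in shL1CAM_slice, against 1299 and 1370 in shControl_slice, a difference of 0.63 ± 0.22 (limma adjusted p = 0.219). MRPL24, with 1224 and 2035 in shL1CAM_slice, against 1021 and 1047 in shControl_slice, differed by 0.61 ± 0.22 (limma adjusted p = 0.229). In these 3 both shL1CAM_slice libraries lay above both shControl_slice libraries, with replicate 2 the higher. Without replicate 2 the differences were 0.31 for MRPL2, 0.27 for MRPL4 and 0.24 for MRPL24 (limma adjusted p = 0.197 to 0.281). Without replicate 1 they were 0.98 for each (limma adjusted p at most 3.2e-05). Among the members with a negative difference the smallest p-values were those of MRPL42 (-0.13, limma adjusted p = 0.589), MRPL35 (-0.15, limma adjusted p = 0.596) and MRPL19 (-0.11, limma adjusted p = 0.649). Without replicate 2 these were -0.044, -0.35 and -0.036, and without replicate 1 -0.21, 0.046 and -0.18.

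In the dish, 0 members were called higher or lower by limma, edgeR or DESeq2, against 0.0922% and 0.215% of all tested genes by limma. By edgeR these shares were 0.192% and 0.400%, and by DESeq2 0.469% and 0.938%. An unadjusted p under 0.05 was found for 2 of the 75 members and for 1217 of the 13010 tested genes, a larger share. The median of the members was 0.02. Both shL1CAM_dish libraries lay above both shControl_dish libraries for 21 members (28.0%, against 25.7% of all tested genes) and below them for 19 (25.3%, against 25.6%). Without replicate 2 of shL1CAM_slice, 2 members were called higher and 4 lower, against 4.49% and 6.56%. MRPS18B had 1816 and 1799 normalized counts in shL1CAM_dish, against 1470 and 1434 in shControl_dish, a difference of 0.32 ± 0.14 (limma adjusted p = 0.529). MRPL24 had 2658 and 2385 in shL1CAM_dish, against 1838 and 2070 in shControl_dish, a difference of 0.37 ± 0.22 (limma adjusted p = 0.695). MRPS6, with 518 and 659 in shL1CAM_dish, against 487 and 446 in shControl_dish, differed by 0.32 ± 0.20 (limma adjusted p = 0.708).

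The negative differences with the smallest p in the dish were those of MRPL50, MRPS23 and MRPL35. MRPL50 had 762 and 867 normalized counts in shL1CAM_dish, against 1034 and 1072 in shControl_dish, a difference of -0.37 ± 0.15 (limma adjusted p = 0.467). MRPS23 had 934 and 971 in shL1CAM_dish, against 1225 and 1169 in shControl_dish, a difference of -0.33 ± 0.16 (limma adjusted p = 0.585). MRPL35 had 1032 and 1171 in shL1CAM_dish, against 1471 and 1325 in shControl_dish, a difference of -0.34 ± 0.17 (limma adjusted p = 0.592). None of these differences passed, although the groups did not overlap.

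Whether the slice change differed between L1CAM shRNA and control shRNA was tested as the interaction. It called 0 members and 0 of all tested genes by limma, by edgeR and by DESeq2. An unadjusted p under 0.05 was found for 0 members, against 162 of the 13010 tested genes. The smallest p belonged to MRPS23, with an interaction of 0.51 ± 0.23 on the log2 scale (limma adjusted p = 0.970). MRPL2 (0.54 ± 0.30) and MRPL50 (0.36 ± 0.21) had the same adjusted p. These 3 values without replicate 2 of shL1CAM_slice were 0.32, 0.20 and 0.27 (limma adjusted p = 1.00 for each), and without replicate 1 they were 0.70, 0.87 and 0.45 (limma adjusted p = 0.00161 to 0.0427). The median over the members was 0.25, and -0.01 without replicate 2 of shL1CAM_slice. Without replicate 1 of that group, 45 members were called higher, against 13.8% of all tested genes, and 0 were called lower, against 2340 of the 13010 tested genes.

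Some members have a name that does not tell their place. Of the 3 relatives of bacterial S18, MRPS18A sits in the large subunit of the human mitochondrial ribosome and MRPS18B and MRPS18C in the small subunit. MRPS18A had 531 and 548 normalized counts in shControl_slice, against 599 and 498 in shControl_dish, and these groups overlapped. MRPS18C had 975 and 908 in shControl_slice, against 1127 and 1079 in shControl_dish, a change of -0.23 ± 0.19 (limma adjusted p = 0.451). Of the 3, MRPS18B alone passed the test, and no test compared them with each other. MRPS18A and MRPS18C share 47.0% and 40.2% of their exonic bases with RSPH9 and ABRAXAS1 in GENCODE v29.

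MRPS30 is part of the large subunit despite its name. It had 1721 and 1744 normalized counts in shControl_slice, against 2437 and 2210 in shControl_dish, and a change of -0.42 ± 0.15 (limma adjusted p = 0.0976). MRPS36 is known as a component of the 2-oxoglutarate dehydrogenase complex. It had 614 and 579 in shControl_slice, against 564 and 614 in shControl_dish, and a change of 0.02 ± 0.17 (limma adjusted p = 0.957). MRPL36, a very small bacterial-type protein of the large subunit, had 1007 and 1039 in shControl_slice, against 1150 and 1136 in shControl_dish, and a change of -0.16 ± 0.21 (limma adjusted p = 0.636).

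The genes that work with the mitochondrial ribosome gave the following counts on the slice with control shRNA, against the same 8.03% lower and 6.80% higher over all tested genes. Of 7 ribosomal proteins under other symbols, 1 fell (14.3%) and 0 rose, with a median of -0.14 on the log2 scale. The 1 was PTCD3, a small-subunit protein, with 1804 and 1716 normalized counts in shControl_slice, against 2445 and 2482 in shControl_dish (-0.49 ± 0.13, limma adjusted p = 0.0377). Of 26 genes for ribosome assembly and ribosomal RNA modification, 4 fell (15.4%) and 0 rose, with a median of -0.24. Their smallest p-values were those of MTERFD1 (-0.78 ± 0.16, limma adjusted p = 0.0160), an assembly factor of the MTERF family, FASTKD2 (-0.71 ± 0.14, limma adjusted p = 0.0165), an RNA-binding protein needed for the large subunit, and METTL17 (-0.60 ± 0.13, limma adjusted p = 0.0199), an assembly factor of the small subunit.

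Of 14 translation factors, 2 fell (14.3%) and 1 rose (7.14%), with a median of -0.24. The elongation factor GFM1 had 802 and 754 normalized counts in shControl_slice, against 1551 and 1469 in shControl_dish (-0.96 ± 0.18, limma adjusted p = 0.0126). The initiation factor MTIF2 fell by 0.56 on the log2 scale (limma adjusted p = 0.0236). The release factor MTRF1L rose by 0.65 (limma adjusted p = 0.0407), with 440 and 432 in shControl_slice, against 295 and 260 in shControl_dish.

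Of 19 genes that make and handle mitochondrial RNA, 4 fell (21.1%) and 0 rose with control shRNA, with a median of -0.34. With L1CAM shRNA, 6 fell (31.6%) and 0 rose, with a median of -0.35. With control shRNA, both slice libraries lay below both dish libraries for 18 of the 19 (94.7%, against 37.3% of all tested genes). They lay above for 0, against 39.8%. With L1CAM shRNA 12 lay below (63.2%, against 28.7%) and 0 above (against 28.0%). Of the 7, 26 and 14 genes described before, 5, 17 and 8 lay below with control shRNA (71.4%, 65.4% and 57.1%, against 37.3%). Above lay 2, 5 and 4 (28.6%, 19.2% and 28.6%, against 39.8%). RG9MTD1, a subunit of mitochondrial RNase P, changed by -0.75 ± 0.14 (limma adjusted p = 0.0120), the RNA-degrading PNPT1 by -0.83 ± 0.16 (limma adjusted p = 0.0123) and the RNA-stabilizing LRPPRC by -0.66 ± 0.15 (limma adjusted p = 0.0218), all with control shRNA. LRPPRC had 6335 and 6288 normalized counts in shControl_slice, against 10265 and 9752 in shControl_dish. With L1CAM shRNA, 11.2% of all tested genes were called lower and 10.1% higher. Of the ribosomal proteins under other symbols 1 of 7 fell (14.3%), of the assembly genes 2 of 26 (7.69%) and of the translation factors 2 of 14 (14.3%). In each of these lists 0 rose.

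The proteins of the cytosolic ribosome stood the other way by median with control shRNA. With control shRNA, 2 of 78 rose (2.56%, against 6.80% of all tested genes) and 2 fell (2.56%, against 8.03%). Their median was 0.28, against -0.18 for the mitochondrial members. Both slice libraries lay above both dish libraries for 58 of the 78 (74.4%, against 39.8% of all tested genes). They lay below them for 5 (6.41%, against 37.3%). The cytosolic genes made up 6.33% and 6.59% of the normalized counts in shControl_slice, against 4.83% and 5.45% in shControl_dish. The 2 that fell were RPL36A and RPL39L, and the 2 that rose were RPL12 and RPL22; these 4 were named after their values were seen. With L1CAM shRNA, 14 of 78 rose (17.9%, against 10.1% of all tested genes) and 0 fell, and the median was 0.49, against 0.11 for the mitochondrial members, both positive. With replicate 2 of shL1CAM_slice left out, 20 rose (25.6%, against 19.5%) and 2 fell, and the median was 0.17, against -0.17.

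Of the brain cell markers listed, GFAP, AQP4, MOG, MAG, MOBP and P2RY12 stood at 0 to 1.19 in all 8 libraries. Summed over the marker lists, neurons gave 3799 and 3987 normalized counts in shControl_slice, against 3042 and 2969 in shControl_dish, of which TUBB3 alone gave 3614 and 3790, against 2862 and 2774. Oligodendrocyte markers gave 5380 and 5390 in shControl_slice, against 4667 and 4308 in shControl_dish, mostly from CNP and MBP. Astrocyte markers gave 1535 and 1425 in shControl_slice, against 2405 and 2147 in shControl_dish, and microglia and macrophage markers 753 and 821, against 709 and 857. With L1CAM shRNA, neuron markers gave 3949 and 5765 in shL1CAM_slice, against 3325 and 3117 in shL1CAM_dish, and oligodendrocyte markers 5642 and 6399, against 4848 and 5042. Endothelial and mural markers summed to at most 72.3 in any of the 8 libraries. The part of other cells in the members' values was not tested.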

How the data were processed

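Ribosome-bound poly-A RNA was sequenced in 8 libraries, 4 groups of 2. The authors deposited 1 table of normalized counts, a signal equal to read counts divided by a size factor per library. Per the submitters' processing notes, FastQC 0.11.3, HTSeq 0.5.4 and DESeq2 were used, and the builds named are hg19 and GRCh37. The aligner and gene models were not given in the sources used here. Within a tolerance of 1e-06, 100% of the values were whole multiples of 1 step per library, and the deposited signal was turned back into reads for the count tests only. These columns gave 13486212 to 16734651 reads, and 0 value columns were left unused.

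The values were transformed to log2(value + 1), so that folds of low genes are understated. The 13010 genes whose 8 libraries averaged 10 or more were fitted with limma 3.58.1 in R 4.3.3, with 4 group means, an intensity trend and 1 spread shared by all groups. The 5 comparisons were slice against dish with each shRNA, the effect of L1CAM shRNA in either culture, and its interaction with the slice. Benjamini-Hochberg adjustment ran over all tested genes, comparison by comparison, with a threshold of 0.05. Every adjusted p quoted is two-sided. The fit was tested on simulated data.

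Alternatives were pseudocounts of 10 and 0.25, no filter, a minimum mean of 50, TMM scaling, the replicate number as a block, library weights, a length trend removed per library, edgeR 4.0.16 quasi-likelihood and DESeq2 1.42.0 on recovered reads, only the 4 libraries compared, and each library left out. Same-numbered libraries deviated from their group means with correlations of -0.38 to 0.19, so the numbers were not taken to pair libraries.

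Transcript lengths came from GENCODE v29 for 96.1% of tested genes and promoters from RefSeq tables on GRCh38.p14; no coordinates of the files' build were used. Members named are the 5 largest called changes per direction or, with fewer than 3 called, the 3 with the smallest p, the 5 highest and lowest levels per kb, the S18 relatives, MRPS30, MRPS36, MRPL36 and any untested member; of other lists, up to 3 by p. Other names, such as those counted by overlap, were added after their values were seen. The members and lists were chosen with earlier results of these data known.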

Additional observations from a re-analysis of the deposited data

How the results depend on the processing

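The fold changes of the called members kept their direction in every setting run, and the number of calls did not stay stable. With control shRNA, library weights called 6 members higher and 34 lower, against 27.6% and 26.4% of all tested genes. The 4 libraries compared alone called 7 and 34, against 26.7% and 25.6%. The removed length trend called 1 and 16 (median -0.22), against 12.7% and 14.3% of the tested genes with a length. DESeq2 called 0 and 8, against 8.54% and 9.50%. TMM scaling gave a median of -0.19. With L1CAM shRNA, DESeq2 called 2 members higher on the slice, against 12.3% of all tested genes. Library weights and the 4 libraries alone called 0 lower, against 4.65% and 2.44%. The removed length trend called 14 lower, against 15.7% of the tested genes with a length. Between the shRNAs in the dish, library weights called 1 lower, against 4.73% of all tested genes. The cause was not tested, except that weights and fewer libraries change the estimated spread and not the fold changes.

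Leaving out 1 library in turn, the members called on the slice with control shRNA ranged from 0 to 5 higher and from 0 to 28 lower (median -0.18 to -0.15), and with L1CAM shRNA from 0 to 44 higher and from 0 to 23 lower (median -0.17 to 0.36). Between the shRNAs the ranges were 0 to 56 higher and 0 to 0 lower on the slice (median 0.02 to 0.48) and 0 to 2 higher and 0 to 4 lower in the dish (median -0.05 to 0.10). The interaction ranged from 0 to 45 higher and 0 to 0 lower (median -0.01 to 0.48). A group left with 1 library was taken to vary like the others.

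The sign of some uncalled values turned. Between the shRNAs on the slice, MRPL42 was 0.26 with the length trend removed, and MRPL35 ranged from -0.35 to 0.046 over the libraries left out. For the interaction, MRPL19 was 0.043 with the length trend removed and -0.12 to 0.051 over the libraries left out, and MRPS18B -0.14 to 0.067. MRPL42 was 0.018 with TMM scaling, 0.34 with the length trend removed, 0.018 by edgeR and -0.086 to 0.084 over the libraries left out.

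With the replicate number as a block, 5 members were lower with control shRNA, against 7.45% of all tested genes. With L1CAM shRNA 3 were lower, against 11.3%, MRPL24 being the third (limma adjusted p = 0.0486). The block changed no other count of members. Of the members, only MRPS24 fell under the filter on low values, and the cause of its low values was not tested.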
